A study of Mus musculus with 15 samples.

Results

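Macrophages sorted from mouse sympathetic ganglia (SAM ganglia in the titles, for sympathetic-associated macrophages) were compared across all genes with macrophages sorted from fat. The comparison takes 7 of the 15 libraries of the series: 3 from ganglia, 2 from subcutaneous fat (sATM) and 2 from visceral fat (vATM). It was set by sample labels and not by measured values, and the 2 fat depots carry equal weight. The other 8 libraries (nerve fibers, spleen and microglia) enter only as levels beside a gene and through the shared estimate of the spread. All cells came from C57BL/6J mice, were sorted as F4/80+ CD45+, and their total RNA was sequenced directly ex vivo with a low-input protocol. The titles carry the letters ND for each group, which the labels do not explain, and they give neither age nor sex. Tissue was taken from 10 mice, and the labels do not tell whether a group's libraries stem from different animals, so each p-value reflects only how far these libraries vary, which can be technical variation. The source labels describe the sATM cells as anti-inflammatory macrophages of white fat. Fat was digested with collagenase for 30 minutes, whereas ganglia had 10 minutes of collagenase and then 30 minutes of trypsin, all at 37 °C. Tissue and digestion therefore cannot be told apart in any difference below.

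Resident macrophages share a core program set by the receptor for colony-stimulating factor and take on further genes from the tissue they live in. In the brain, transforming growth factor beta (TGF-beta) holds microglia in a state marked by purine receptors, the fractalkine receptor and the transcription factor Sall1. In fat, macrophages handle lipid and include cells around vessels that carry C-type lectins and scavenger receptors. Sympathetic ganglia hold the cell bodies of the neurons that innervate fat, with satellite glia wrapped around them.

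The corrected table held 4.09 to 9.31 M counts in the ganglia libraries and 4.42 to 12.5 M in the fat libraries (M for mega). Between 49.6% and 71.5% of them fell on genes that gather ribosomal RNA reads, which left 1.45 to 3.57 M counts for other genes. Levels are counts per M counts (CPM) after scaling, and each fold change is given on the log2 scale with the fit's SE. The log2 CPM of ganglia pairs correlated at 0.762 to 0.897 (Pearson, across genes, which are not independent replicates), that of the sATM pair at 0.880 and that of the vATM pair at 0.942. Between groups the values overlapped these, at 0.728 to 0.890 for ganglia with fat and 0.866 to 0.940 for sATM with vATM. Ganglia 3 had the most background DNA (857 raw olfactory receptor counts per M, against 32.9 to 312 in the other 6 libraries). Among the 4 fat libraries, sATM 1 was most often listed as the lowest (50.4% of all tested genes) and also most often as the highest (28.9%). Each gene was counted for a single library even where libraries tied, so the share of 50.4% can be too high. These shares do not show that sATM 1 was low in general.

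The markers given for these cells did not all point to 1 side. The fractalkine receptor gene Cx3cr1 stood at 2129.7, 1468 and 1810.3 CPM in ganglia, 326 and 53.9 in sATM and 98.7 and 72 in vATM (log2 fold change 3.82 ± 0.43, adjusted p = 6.53e-05). Every ganglia library lay above every fat library, and sATM 1 was the highest of the latter. Stab1, a scavenger receptor, read 382, 600.5 and 421 in ganglia against 31.1 and 60.4 in sATM and 197 and 208 in vATM (2.28 ± 0.40, adjusted p = 0.00276). Taken by depot, Stab1 was called against sATM but not against vATM. Retnla, a secreted protein of alternatively activated macrophages, had the opposite order, with 149.8, 12.9 and 76.8 CPM in ganglia, 837 and 4602 in sATM and 9629 and 6119.5 in vATM (-5.86 ± 0.79, adjusted p = 3.14e-04). F13a1, which encodes the A subunit of coagulation factor XIII, was not called, with 586, 423 and 368 CPM against 492 and 648 in sATM and 884 and 799 in vATM (-0.59 ± 0.41, adjusted p = 0.576). Of the sort markers, Ptprc (CD45) was not called (-0.87 ± 0.30) with 347, 216 and 261 CPM in ganglia, 951 and 417 in sATM and 389.8 and 345 in vATM. Adgre1 (F4/80) was higher in ganglia, at 305, 456 and 336 CPM against 129 and 193 in sATM and 154 and 194 in vATM (1.13 ± 0.22, adjusted p = 0.00711). Its call was lost without ganglia 2, sATM 1, vATM 1 or vATM 2 (adjusted p = 0.0564, 0.148, 0.259 and 0.0844). Taken by depot, Adgre1 was called against sATM but not against vATM. Both sort markers were present in all 7 libraries.

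Across the 15289 genes tested, 377 were higher in ganglia (2.47% of tested genes) and 187 lower (1.22%) at an adjusted p below 0.05 and with a log2 fold change of 1 or more in either direction (edgeR's quasi-likelihood test with Benjamini-Hochberg adjustment). Genes past that rule are said to be called, and rose or fell is used only of them. The median over all tested genes was 0.14. In 353 of the 377 higher genes every ganglia library lay above every fat library, and in 176 of the 187 lower genes every one lay below. Over all tested genes, with no test, ganglia lay above for 7.51% and below for 7.75%. Leaving out 1 library moved these counts by over 1.5 times in some cases: 181 genes were higher without vATM 1 and 192 without vATM 2, and 94 to 124 were lower without each library other than sATM 1. Taken by depot, 253 genes were higher (1.65%) and 164 lower (1.07%) against sATM, and 185 were higher (1.21%) and 123 lower (0.804%) against vATM. These 2 comparisons share the ganglia libraries. The higher count was smallest without sATM 1 against sATM (79) and without vATM 1 or vATM 2 against vATM (44 and 49). Between the depots, sATM was higher than vATM for 3 genes (0.0196%) and lower for 3 (0.0196%). In raw gene-body counts, before the authors' removal of DNA reads, only 2 genes were higher (Tmem119 and Olfml3) and 2 lower (Cd209f and Cd209g), so nearly every call below rests on the corrected table. Of the 92 called genes named in the text, a fit on RPKM with no filter on low values ended the calls of 22: Adam8, Adgre1, Anxa1, Apoe, C1qa, Ccl4, Cd209d, Clec10a, Csf1r, Dbh, Egr1, F10, Fgfr1, Itgb2, Lpl, Lyve1, Osm, Plin2, S100a10, S100a6, Skil and Slc40a1. Apart from raw counts, no other setting that kept all 7 libraries ended the call of a named gene outside these. For genes named below, a call in ganglia against fat held without any 1 of the 7 libraries unless a library is named. Slco2b1 is not among the 92 genes and was not checked in these ways.

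**Figure D1:**
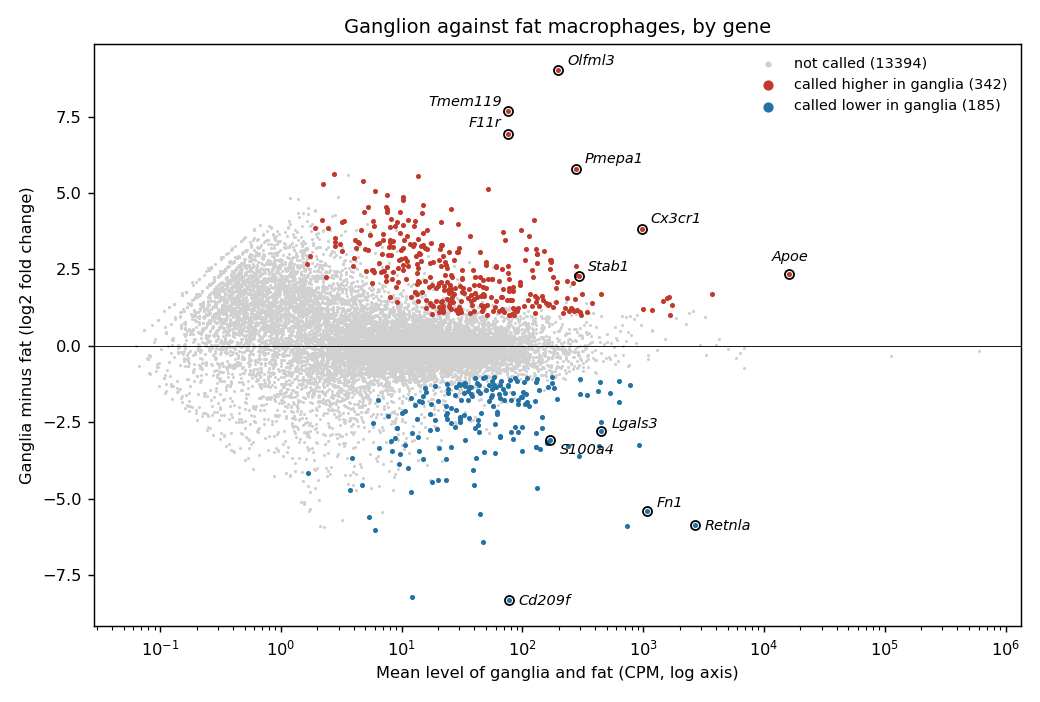
Each point is a gene, placed by the mean of its ganglia and fat levels (CPM, log axis) and its log2 fold change in ganglia against fat; red genes were called higher and blue genes lower, and genes listed at 0 in all libraries of the ganglia, of both depots or of 1 depot are left out. Olfml3 at 9.01 and Tmem119 at 7.67 lie at the top, Cd209f at -8.30 at the bottom, and Apoe farthest right among the called genes.

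Promoter sequence is shown for 5 genes whose levels the results turn on: 3 microglia signature genes that were higher in ganglia and 2 genes of fat macrophages that were lower. Each line gives the 250 bases before the RefSeq transcript start (GRCm38.p6, the build also called mm10), 5′ to 3′ on the gene's strand, and stops before the transcript. Capitals mark matches on either strand to 4 short motifs: GAGGAA, a core bound by the macrophage factor PU.1; CAGACA, a box bound by SMAD factors; TTC and GAA with any 4 bases between them, a site of STAT factors; and TGANTCA, a site of AP-1. Matches to the same motif can overlap. The windows are chr3:103738002-103738251, minus strand (Olfml3); chr7:55767934-55768183, plus strand (Siglech); chr17:48346151-48346400, plus strand (Trem2); chr8:4105765-4106014, minus strand (Cd209f); and chr2:25627975-25628224, minus strand (Fcna).
Olfml3: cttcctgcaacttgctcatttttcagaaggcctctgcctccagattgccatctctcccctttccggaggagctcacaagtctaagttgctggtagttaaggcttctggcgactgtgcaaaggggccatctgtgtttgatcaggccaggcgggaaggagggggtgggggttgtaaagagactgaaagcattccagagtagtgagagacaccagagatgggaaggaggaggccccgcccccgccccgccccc
Siglech: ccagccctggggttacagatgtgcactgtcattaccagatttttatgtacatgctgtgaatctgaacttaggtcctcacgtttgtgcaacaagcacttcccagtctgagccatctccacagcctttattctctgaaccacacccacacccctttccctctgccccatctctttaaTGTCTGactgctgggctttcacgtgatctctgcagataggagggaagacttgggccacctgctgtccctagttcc
Trem2: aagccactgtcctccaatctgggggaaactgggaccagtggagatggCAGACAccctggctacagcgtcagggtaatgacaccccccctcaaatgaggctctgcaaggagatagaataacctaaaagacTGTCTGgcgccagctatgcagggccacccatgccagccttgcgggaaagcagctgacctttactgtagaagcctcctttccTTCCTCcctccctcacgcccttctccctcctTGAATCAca
Cd209f: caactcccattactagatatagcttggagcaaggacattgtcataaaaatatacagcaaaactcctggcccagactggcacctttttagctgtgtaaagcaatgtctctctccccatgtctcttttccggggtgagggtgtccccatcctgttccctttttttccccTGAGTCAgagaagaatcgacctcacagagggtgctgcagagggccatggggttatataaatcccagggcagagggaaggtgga
Fcna: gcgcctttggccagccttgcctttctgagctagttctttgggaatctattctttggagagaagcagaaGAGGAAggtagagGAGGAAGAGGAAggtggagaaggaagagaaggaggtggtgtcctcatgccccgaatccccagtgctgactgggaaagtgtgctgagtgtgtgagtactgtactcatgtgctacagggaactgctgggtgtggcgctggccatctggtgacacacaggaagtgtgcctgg
None of the 4 motifs was found in the Olfml3 window, whereas Trem2 had 2 SMAD boxes, 1 PU.1 core and 1 AP-1 site. Fcna held 3 PU.1 cores and Cd209f 1 AP-1 site. A match here is a description of letters and not evidence of binding. Sequence was matched for 11339 of the tested genes, and 22.8% of these windows held the PU.1 core, 13.7% the SMAD box, 5.3% the STAT site and 5.3% the AP-1 site. Among the 277 genes called higher with sequence, the shares were 28.9%, 15.9%, 2.5% and 5.8%. Among the 143 called lower they were 28.0%, 15.4%, 7.0% and 11.2%.

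Genes that mark microglia were higher in ganglia. Of the microglia signature list, 15 of 18 tested members were higher in ganglia and 0 lower, with a median log2 fold change of 3.32 against 0.14 over all tested genes. The count was 14 against vATM and 13 against sATM. Against both depots together it ran from 13 to 15 when 1 library was left out. Of all tested genes 2.47% were higher and 1.22% lower, which are the shares to set beside each list count below. A list with 1 called member was not read as differing from them. Olfml3, a secreted olfactomedin protein (chr3:103735394-103738001, minus strand), stood at 285, 410.4 and 484 CPM in ganglia, 0.255 and 0.69 in sATM and 0.12 and 1.97 in vATM (log2 fold change 9.01 ± 0.60, adjusted p = 4.78e-07). The counts behind the fat values were 1 and 6 in sATM and 1 and 16 in vATM, so the fat level is imprecise. Tmem119, a membrane protein used to tell microglia from other macrophages (chr5:113793729-113800352, minus strand), read 118, 153 and 181 in ganglia against 0 and 1.03 in sATM and 0.838 and 0.737 in vATM (log2 fold change 7.67 ± 0.49, adjusted p = 4.35e-07). Neither gene overlapped between ganglia and fat, which the rule for naming genes of largest fold required. For Tmem119 the log2 fold changes by depot were 7.79 ± 0.68 against sATM and 7.54 ± 0.66 against vATM. Those of Olfml3 were 9.47 ± 0.86 against sATM and 8.54 ± 0.80 against vATM.

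The purine receptors of the list rose together. P2ry12, which steers microglial processes toward ADP (chr3:59216271-59262831, minus strand), was at 219, 196 and 202 CPM in ganglia, 7.13 and 11.5 in sATM and 30.3 and 30.4 in vATM (log2 fold change 3.60 ± 0.27, adjusted p = 1.57e-06). Its neighbour P2ry13, another ADP receptor (chr3:59207894-59210882, minus strand), was at 103, 145 and 141 against 14.3 and 3.22 in sATM and 13.3 and 19.5 in vATM (log2 fold change 3.47 ± 0.37, adjusted p = 3.91e-05). Gpr34, a receptor for lysophosphatidylserine, was at 211, 196 and 276 against 13.8 and 12.6 in sATM and 43.5 and 53 in vATM (3.17 ± 0.28). In all 3 genes each ganglia library lay above all fat libraries, as the naming rule required of P2ry12 and P2ry13. The vATM libraries held the highest fat value. Over the purine signalling list, 4 of 18 tested genes were higher and 0 lower (2 without sATM 1, vATM 1 or vATM 2 were higher); Entpd1, the CD39 ectonucleotidase, had 165, 172 and 169 CPM against 31.1 and 67.5 in sATM and 98.7 and 91.1 in vATM (1.30 ± 0.24), a call lost without sATM 1, vATM 1 or vATM 2 (adjusted p = 0.0541, 0.103 and 0.0844).

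Siglech, a sialic acid binding lectin of microglia and plasmacytoid dendritic cells, read 318, 169 and 209 CPM in ganglia, 3.82 and 8.39 in sATM and 27.4 and 28.5 in vATM (log2 fold change 4.12 ± 0.33, adjusted p = 3.04e-06). Trem2, a lipid receptor of macrophages, read 147, 285 and 253 against 15.3 and 46.2 in sATM and 33.5 and 46.6 in vATM (log2 fold change 2.70 ± 0.34, adjusted p = 1.94e-04). Sall1, a transcription factor that defines microglia among macrophages, stayed low, at 10.4, 14.7 and 13.2 CPM (45, 111 and 66 counts) in ganglia. It had 1 count in sATM 1 and was listed at 0 in the other 3 fat libraries, so no fold change is given. Bhlhe41, a transcription factor also seen in microglia, was at 29.8, 17 and 33.5 CPM against 1.02 and 0.115 in sATM and 0.12 and 1.23 in vATM (5.57 ± 0.81, adjusted p = 6.07e-04). The 3 members not called were Fcrls (612, 934 and 891 CPM against 121 and 698 in sATM and 579 and 671 in vATM; 0.68 ± 0.45), Csf3r (1.11 ± 0.37) and Cst7, which was at or below 0.983 CPM in all 7 libraries. Cst7 was named after its values were seen.

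Set beside brain, the ganglia levels of these genes were not a fixed share of microglial levels. Mean levels in microglia (± SD, n = 3) were 3932 ± 696 CPM for P2ry12, 1351 ± 268 for Tmem119, 1923 ± 416 for Olfml3, 404 ± 22.5 for Sall1 and 4627 ± 487 for Cx3cr1. Those of Pmepa1 (500.1 ± 84.8) were close to the 540.3 ± 35.2 of ganglia, and the chemokine Ccl12 was lower in microglia (17.5 ± 4.34) than in ganglia (182 ± 22.5). F13a1 (8.0 ± 5.49 in microglia) and Mrc1 (24.3 ± 21.6) were low in brain, whereas Mrc1, the mannose receptor, read 1667, 1071 and 783 CPM in the ganglia libraries. No test of ganglia against microglia was made here.

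**Figure D2:**
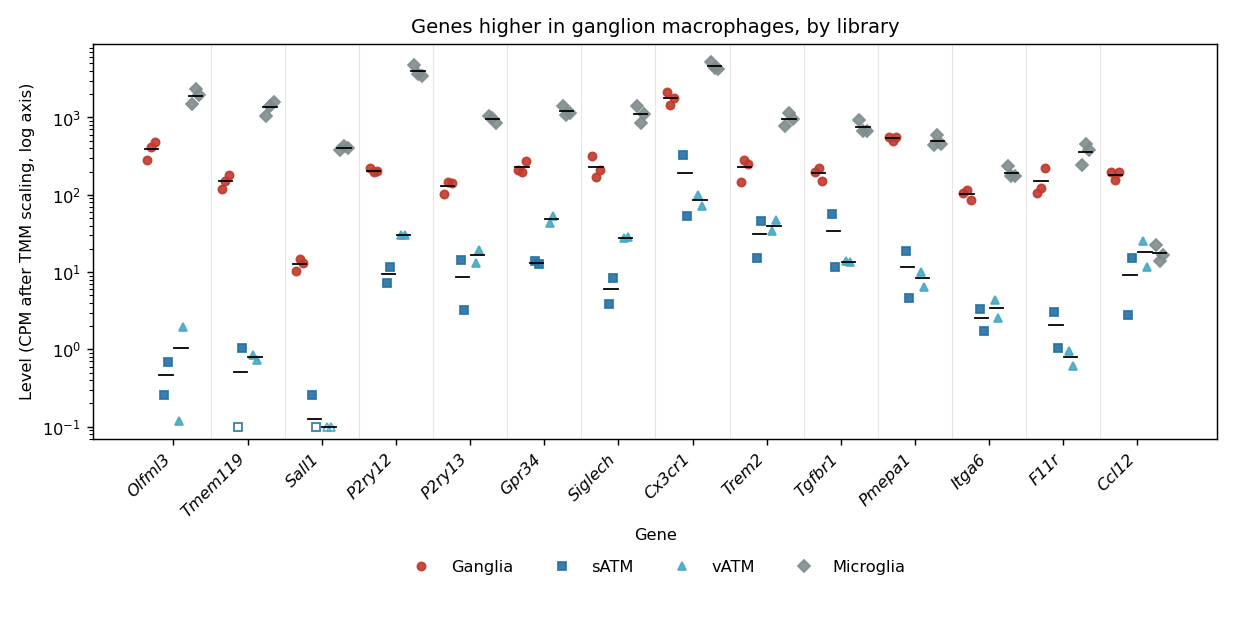
Levels of 14 genes called higher in ganglia, in CPM after TMM scaling on a log axis; each symbol is 1 library (red circles ganglia, blue squares sATM, light blue triangles vATM, grey diamonds microglia), black lines are group means, and open symbols at 0.1 stand for a value of 0. All ganglia symbols lie above all fat symbols in each gene, which the rule for naming genes of largest fold required of most of them. All microglia symbols lie above all ganglia symbols except for Pmepa1 and Ccl12.

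Itga9, an integrin alpha chain, could not be given a fold change because the table lists it at 0 in all 4 fat libraries, against 14.3, 24.2 and 15.6 CPM in ganglia. Its raw gene-body counts were 4669, 7189 and 7638 in ganglia, 4001 and 9708 in sATM and 11254 and 10785 in vATM. The fat libraries thus had many reads over the gene, and the listed 0 can be a failed estimate. Itga9 counts among the 377 genes called higher, which include 9 listed at 0 in all fat libraries.

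Both TGF-beta receptor genes Tgfbr1 and Tgfbr2 and the feedback gene Smad7 rose in ganglia. Tgfbr1, the type I receptor kinase, was at 199.9, 223 and 150.3 CPM in ganglia, 56.8 and 11.6 in sATM and 13.8 and 13.5 in vATM (log2 fold change 3.15 ± 0.38, adjusted p = 1.31e-04). The type II receptor Tgfbr2 was at 377, 474 and 368 against 132 and 103 in sATM and 155 and 182 in vATM (log2 fold change 1.53 ± 0.24, adjusted p = 0.00102). Smad7, the inhibitory SMAD that the pathway itself induces, was at 30.7, 20.5 and 21.3 against 8.66 and 1.38 in sATM and 2.39 and 1.23 in vATM (log2 fold change 3.03 ± 0.46, adjusted p = 9.17e-04). For each of the 3 genes the lowest ganglia library lay above the highest fat library, which was sATM 1 for Tgfbr1 and Smad7. Pmepa1, a TGF-beta target that restrains the pathway (chr2:173224465-173276533, minus strand), had 558, 499.8 and 563 CPM in ganglia and 18.8 and 4.6 in sATM and 10.2 and 6.39 in vATM (log2 fold change 5.80 ± 0.50, adjusted p = 4.31e-06). Pmepa1 was not on the list of the pathway. On that list 4 of 18 tested genes were higher and 0 lower (median 1.12), beside 2.47% and 1.22% of all tested genes. The list had 3 to 5 higher when 1 library was left out. The other one, Skil, a SMAD co-repressor, had 190.5, 92.2 and 95.1 CPM against 50.7 and 8.28 in sATM and 24.4 and 15.2 in vATM (2.39 ± 0.59), and its call was lost without ganglia 1, ganglia 2, ganglia 3, sATM 2, vATM 1 or vATM 2 (adjusted p = 0.157, 0.0587, 0.0533, 0.154, 0.197 and 0.26). The ligand and the signal-carrying SMADs were not called, with log2 fold changes of -0.16 for Tgfb1, -0.29 for Smad2, -0.06 for Smad3 and -0.02 for Smad4.

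Of adhesion genes, F11r, Itga6 and Itgb5 rose. F11r, the junctional adhesion molecule A (chr1:171437561-171464593, plus strand), was at 106, 124 and 221 CPM in ganglia, 3.06 and 1.03 in sATM and 0.958 and 0.614 in vATM (log2 fold change 6.93 ± 0.49, adjusted p = 6.51e-07). Itga6, the laminin-binding integrin alpha 6 chain, was at 106, 114 and 85.1 against 3.31 and 1.72 in sATM and 4.31 and 2.58 in vATM (log2 fold change 5.14 ± 0.33, adjusted p = 4.35e-07). Itgb5, which pairs with alpha V, was at 217, 327 and 257 against 43.8 and 25.3 in sATM and 30.8 and 26.8 in vATM (log2 fold change 3.09 ± 0.26, adjusted p = 4.31e-06). None of the 3 overlapped, which the naming rule required of F11r and Itga6. Of the integrin list, 3 of 19 tested genes were higher, Itga9 among them, and 1 was lower, which was Itgb2, the beta 2 chain of leukocyte integrins (169, 199 and 205 CPM against 495 and 436 in sATM and 365 and 338 in vATM; -1.08 ± 0.22; lost without ganglia 1, sATM 2, vATM 1 or vATM 2 (adjusted p = 0.0609, 0.0534, 0.0954 and 0.118)). Among other genes with large increases, Lpcat2, an enzyme of platelet-activating factor synthesis, read 127, 110.4 and 147 CPM against 23.2 and 8.51 in sATM and 6.11 and 5.78 in vATM (log2 fold change 3.74 ± 0.31, adjusted p = 3.82e-06). Fam46c, which encodes a poly(A) polymerase, read 55.2, 28.4 and 81.6 against 4.58 and 4.48 in sATM and 2.63 and 2.58 in vATM (3.99 ± 0.35). Tln2, a talin that links integrins to actin, read 61.9, 57.1 and 38.7 against 5.6 and 1.03 in sATM and 8.98 and 12.3 in vATM (3.20 ± 0.56), and its call was lost without vATM 1 (adjusted p = 0.0613).

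On the core macrophage list, 7 of 19 tested genes were higher and 0 lower (median 1.13; 3 to 8 higher when 1 library was left out, with 3 without vATM 1 or vATM 2). Taken by depot, 6 genes of the list were higher against sATM and 2 against vATM. Fcgr1, the high-affinity receptor for immunoglobulin G, was at 147, 239 and 199 CPM in ganglia, 75.9 and 83.8 in sATM and 56.1 and 54.7 in vATM (log2 fold change 1.55 ± 0.22, adjusted p = 4.58e-04). Csf1r, the receptor for colony-stimulating factor 1, was at 2166, 2904 and 2373 against 914 and 757 in sATM and 1037 and 1294 in vATM (1.33 ± 0.22). C1qa, a chain of complement C1q, was at 1808, 2869 and 2587 against 241 and 807 in sATM and 1045 and 1371 in vATM (1.61 ± 0.32), and was not called against vATM alone. The ganglia values lay above all fat values in each, but the call was lost for Csf1r without vATM 1 (adjusted p = 0.0994) and for C1qa without vATM 1 (adjusted p = 0.14). In contrast Cd68, a lysosomal glycoprotein, was not called, with 98.8, 98.2 and 91.7 CPM against 105 and 138 in sATM and 185 and 160.2 in vATM (-0.59 ± 0.21).

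Of the list of resident adipose and perivascular macrophage genes, 8 of 22 tested genes were lower in ganglia and 1, Stab1, was higher (median -0.73), while 13 were not called, the mannose receptor Mrc1 (1.01 ± 0.44), Selenop (0.95 ± 0.29) and the chemokine Pf4 (0.54 ± 0.45) among them. Without 1 library the number lower ran from 6 to 8. Against sATM 3 genes of the list were higher and 7 lower, and against vATM 0 and 8. Of the genes that fell, Retnla, given above, had the highest level in fat. The lectin genes Cd209f, Cd209g and Cd209d fell too, whereas Cd209b was not called (-2.09 ± 0.74). Cd209f (chr8:4102793-4105764, minus strand) was at 0.462, 0.664 and 0 CPM in ganglia, 62.1 and 92.8 in sATM and 207 and 254 in vATM. The ganglia values rest on 2, 5 and 0 counts, so the fitted log2 fold change of -8.30 ± 0.96 (adjusted p = 7.89e-05) is imprecise. Cd209g (chr8:4134736-4137707, plus strand) was listed at 0 in all ganglia libraries and at 23.9 and 39.3 CPM in sATM and 54.5 and 85.7 in vATM. Its raw gene-body counts were 6, 5 and 15 in ganglia against 138 and 573 in sATM and 638 and 1064 in vATM. Cd209d was at 1.15, 1.99 and 3.01 CPM against 33.1 and 36.8 in sATM and 42.4 and 67.2 in vATM (log2 fold change -4.39 ± 0.81, adjusted p = 0.00424). Reads may be split between these similar lectin genes, since how multiply mapped reads were counted is not given in the sources used here. Another lectin of the family, Cd209a, was not called (124, 77.2 and 72.4 CPM against 43 and 95.5 in sATM and 41.2 and 55.8 in vATM; 0.65 ± 0.36).

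Fcna, a secreted ficolin that binds sugars, was at 2.77, 2.52 and 1.2 CPM in ganglia, 4.33 and 34.7 in sATM and 124 and 146 in vATM (log2 fold change -4.57 ± 0.60, adjusted p = 2.68e-04). Ednrb, the type B endothelin receptor, was at 8.54, 10.2 and 2.61 against 31.1 and 69.7 in sATM and 134 and 117 in vATM (log2 fold change -3.47 ± 0.48, adjusted p = 3.82e-04). In both, sATM 1 was the fat library nearest to ganglia and vATM held the highest values. Lyve1, a hyaluronan receptor of perivascular macrophages named after its values were seen, had 17.1, 21.5 and 9.03 CPM against 25 and 78.4 in sATM and 278 and 203 in vATM (-2.81 ± 0.67), and was called against vATM (-3.91 ± 0.75) but not against sATM (-1.70 ± 0.72). The Lyve1 call was lost without ganglia 1, ganglia 2, ganglia 3, sATM 2, vATM 1 or vATM 2 (adjusted p = 0.0931, 0.0803, 0.13, 0.163, 0.172 and 0.143). Clec10a, a galactose-binding lectin, had 7.62, 24.6 and 11.4 CPM against 56.8 and 115 in sATM and 144 and 151 in vATM (-2.94 ± 0.59; lost without ganglia 1, ganglia 3, sATM 2, vATM 1 or vATM 2 (adjusted p = 0.0503, 0.0536, 0.0759, 0.0731 and 0.0933)). Mrc1, from the same list, had 1667, 1071 and 783 against 334 and 524 in sATM and 834 and 747 in vATM and was not called (1.01 ± 0.44, adjusted p = 0.298).

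**Figure D3:**
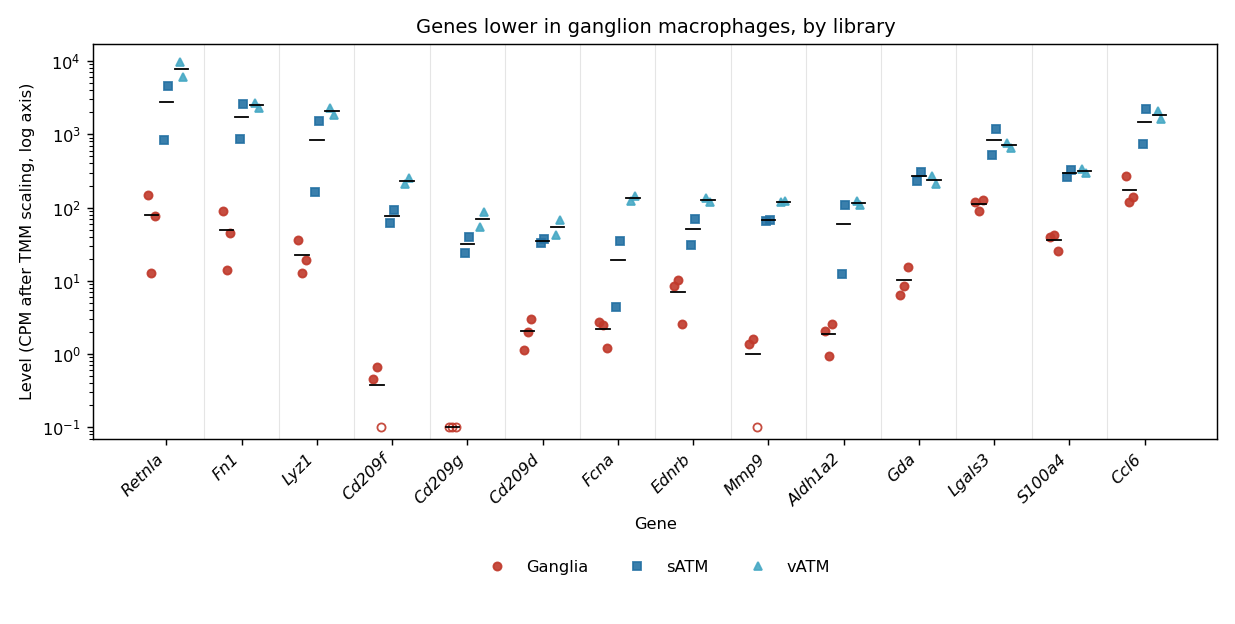
Levels of 14 genes called lower in ganglia, in CPM after TMM scaling on a log axis; each symbol is 1 library (red circles ganglia, blue squares sATM, light blue triangles vATM), black lines are group means, and open symbols at 0.1 stand for a value of 0. All ganglia symbols lie below all fat symbols in each gene, which the rule for naming genes of largest fold required of most of them. The lowest fat symbol is sATM 1 in Retnla, Fn1, Lyz1, Fcna and Aldh1a2.

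Genes with large decreases that stand on no list in common were Fn1, Lyz1, Aldh1a2 and Gda. Fn1, which encodes fibronectin, was at 88.4, 14.1 and 45.5 CPM in ganglia, 855 and 2614 in sATM and 2684 and 2306 in vATM (log2 fold change -5.40 ± 0.74, adjusted p = 3.75e-04). Lyz1, a lysozyme gene next to the near-identical Lyz2, was at 35.6, 12.6 and 19.1 against 161 and 1536 in sATM and 2296 and 1812 in vATM (log2 fold change -5.89 ± 0.81, adjusted p = 3.82e-04), and how reads shared by the pair were counted is not given in the sources used here. Aldh1a2, the enzyme that makes retinoic acid, was at 2.08, 0.93 and 2.61 against 12.2 and 107 in sATM and 122 and 109.6 in vATM (log2 fold change -5.50 ± 0.92, adjusted p = 0.00201). In these 3 genes sATM 1 lay between ganglia and the other fat libraries. Gda, a guanine deaminase, did not show that split, with 6.46, 8.5 and 15.4 CPM in ganglia, 234 and 311 in sATM and 267 and 212 in vATM (log2 fold change -4.65 ± 0.52, adjusted p = 6.33e-05). Cfp, the complement factor properdin, was at 53.8, 46.2 and 30.7 against 117 and 726 in sATM and 635 and 685 in vATM (log2 fold change -3.60 ± 0.48, adjusted p = 3.11e-04). Ear2, an eosinophil-associated ribonuclease, was at 32.8, 29.5 and 11.6 against 117 and 338 in sATM and 229.6 and 338 in vATM (-3.37 ± 0.48). Fgfr1, a fibroblast growth factor receptor, was at 12.7, 17.7 and 16.9 against 49.7 and 192 in sATM and 245 and 249 in vATM (-3.46 ± 0.59).

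Matrix proteases moved in both directions. Mmp9, a gelatinase of neutrophils and macrophages, was at 1.39, 1.59 and 0 CPM in ganglia (6, 12 and 0 counts), 66.5 and 68.3 in sATM and 118 and 123 in vATM (log2 fold change -6.42 ± 0.79, adjusted p = 1.39e-04). Mmp19 was at 12.7, 11.2 and 7.82 against 23.2 and 55.4 in sATM and 59.9 and 44 in vATM (-2.10 ± 0.39), and Plaur, the urokinase receptor, at 14.5, 7.97 and 10.03 against 103 and 59 in sATM and 61.1 and 56.7 in vATM (log2 fold change -2.67 ± 0.38, adjusted p = 4.32e-04). The membrane-bound protease Mmp14 went the other way, with 56.6, 45.7 and 99.3 CPM in ganglia, 5.35 and 8.39 in sATM and 2.63 and 6.39 in vATM (log2 fold change 3.58 ± 0.37, adjusted p = 2.97e-05). Mmp2, a gelatinase that Mmp14 activates, was at 15.7, 17.7 and 18.1 against 1.02 and 1.38 in sATM and 0.239 and 1.47 in vATM (4.04 ± 0.49). No ganglia library overlapped a fat library in any of the 5, as the naming rule required of Mmp9 and Mmp14. On the list of proteases and inhibitors 2 of 18 tested genes were higher and 4 lower, the last being Adam8 (-3.50 ± 0.74; lost without ganglia 2, ganglia 3, sATM 2, vATM 1 or vATM 2 (adjusted p = 0.0819, 0.0536, 0.0878, 0.0833 and 0.0906)).

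Among monocyte genes, 4 of 16 tested were lower in ganglia and 0 higher (median -1.36; 2 without ganglia 2 or vATM 1). Besides Fn1 they were S100a4, S100a6 and F10. S100a4, a calcium-binding protein of motile cells, was at 40.2, 42.2 and 25.9 CPM in ganglia, 262 and 330.0 in sATM and 336 and 292 in vATM (log2 fold change -3.08 ± 0.30, adjusted p = 1.85e-05). S100a6 (-3.14 ± 0.62) lost its call without ganglia 2 or vATM 1 (adjusted p = 0.0516 and 0.0853), and F10 (-3.70 ± 0.92), coagulation factor X, without ganglia 1, ganglia 2, sATM 1, sATM 2, vATM 1 or vATM 2 (adjusted p = 0.109, 0.15, 0.121, 0.0975, 0.11 and 0.185). The defining receptor Ccr2 was not called, at 818, 509 and 476 against 1031 and 1027 in sATM and 961 and 688 in vATM (-0.62 ± 0.59, adjusted p = 0.711). For Ly6c2 and Plac8, which mark classical monocytes, the depots themselves differed. These and the other genes called between the depots were named after their values were seen. Ly6c2 was at 281 and 59.3 CPM in sATM, 5.31, 20.5 and 37.1 in ganglia and 2.87 and 2.46 in vATM, and Plac8 was at 296 and 50.6 in sATM, 14.8, 28 and 6.42 in ganglia and 2.39 and 0.983 in vATM. The ganglia therefore lay between the depots for both (-3.01 ± 0.65 against sATM and 2.97 ± 0.76 against vATM for Ly6c2, and -3.38 ± 0.64 and 3.28 ± 0.78 for Plac8), on opposite sides of 0. The list had 10 genes lower against sATM, and 3 lower with 2 higher against vATM. sATM 1 had the highest value of both genes.

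The other genes called between the depots were Gngt2, higher in sATM, and Pxdc1, Slco2b1 and Slc40a1, lower in sATM. Pxdc1 was at 46.4, 36.7 and 31.9 CPM in ganglia, 0.764 and 0.575 in sATM and 10.1 and 5.65 in vATM, so its difference was 5.85 ± 0.57 against sATM and 2.28 ± 0.43 against vATM. Slc40a1, the iron exporter ferroportin, was at 59.3, 68.5 and 53.6 in ganglia, 7.89 and 11.8 in sATM and 51.4 and 71.6 in vATM, and its call in ganglia against fat came from sATM (2.60 ± 0.33 against sATM and -0.02 ± 0.29 against vATM). That call was lost without sATM 1 or vATM 1 (adjusted p = 0.0822 and 0.167). Slco2b1, an organic anion transporter, was at 297, 356 and 258 in ganglia, 30.3 and 44.5 in sATM and 131 and 137 in vATM (3.02 ± 0.30 against sATM and 1.18 ± 0.27 against vATM). The calls between the depots rest on 2 libraries a side; all 6 were lost without vATM 1 (adjusted p = 0.111 to 0.523) and without vATM 2 (0.235 to 1), and without sATM 2 the comparison called 61 genes higher and 26 lower.

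Chemokine ligands split between the groups, with 6 of 25 tested genes higher and 2 lower in ganglia. Ccl12, a ligand of the monocyte receptor Ccr2, was at 195, 156 and 195 CPM in ganglia, 2.8 and 15.3 in sATM and 25.3 and 11.6 in vATM (log2 fold change 3.79 ± 0.45, adjusted p = 1.11e-04). Cxcl16, a membrane-bound chemokine that also binds oxidized lipoprotein, was at 255, 257 and 340.2 against 23.2 and 45.9 in sATM and 70.6 and 72.3 in vATM (log2 fold change 2.51 ± 0.35, adjusted p = 4.58e-04). Ccl4 was at 464, 269.9 and 399 against 80.7 and 119 in sATM and 78.7 and 73.1 in vATM (2.12 ± 0.31), and Ccl3 at 358, 353 and 335 against 154 and 90.5 in sATM and 127 and 99.2 in vATM (1.57 ± 0.28). The 2 that fell were Ccl6 and Ccl9, related chemokines that bind Ccr1. Ccl6 had 268, 121 and 140.4 CPM in ganglia, 736 and 2248 in sATM and 2078 and 1619.6 in vATM (log2 fold change -3.24 ± 0.40, adjusted p = 1.56e-04), and Ccl9 had 193, 111 and 94.3 against 364 and 1041 in sATM and 989.6 and 617 in vATM (log2 fold change -2.50 ± 0.40, adjusted p = 0.00145). Cx3cr1 was the only 1 of 12 tested chemokine receptors called.

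In innate sensing, Tlr2, the receptor for bacterial lipoproteins, was at 323, 294 and 273 CPM in ganglia, 76.4 and 57 in sATM and 53.9 and 61 in vATM (log2 fold change 2.26 ± 0.26, adjusted p = 8.85e-05), and 4 of 20 tested genes of the Toll-like receptor list were higher with 0 lower (2 without vATM 1 or vATM 2 were higher). Of the interferon response list, 5 of 22 tested genes were higher and 1 lower (3 without ganglia 2, sATM 1, vATM 1 or vATM 2 were higher). Ifit3, an interferon-induced antiviral protein, was at 41.8, 41.4 and 35.7 against 9.42 and 9.66 in sATM and 4.79 and 3.56 in vATM (2.65 ± 0.46), and Ifit1 at 36, 45.7 and 31.7 against 21.4 and 17.5 in sATM and 6.35 and 2.95 in vATM (1.99 ± 0.37). For both, sATM lay between ganglia and vATM, and the list had 5 genes called higher against vATM and 0 against sATM. The sialic acid lectins Cd33 and Siglece rose with Siglech. Cd33 was at 113, 101 and 83.5 CPM against 8.91 and 7.13 in sATM and 33.4 and 36.1 in vATM (2.57 ± 0.32). Siglece was at 37.2, 65.2 and 41.7 against 10.7 and 8.97 in sATM and 18.1 and 13.3 in vATM (1.96 ± 0.31). Of the antigen presentation lists, 1 of 11 class II genes was higher, which was H2-Ob, a brake on peptide loading (17.5, 27.6 and 21.5 CPM against 4.58 and 3.1 in sATM and 6.7 and 7.99 in vATM; 2.07 ± 0.33), and 0 of 13 class I genes were called in edgeR (2 at an unadjusted p under 0.05, 0 called by DESeq2 and 0 by limma's voom). The class II gene H2-Oa (2.53 ± 0.76) was not called by edgeR (adjusted p = 0.0827) but was by DESeq2 (0.00215) and voom (0.0167), and H2-DMb2 (-1.78 ± 0.92) and the class I gene H2-Q6 (2.35 ± 1.20) were fitted with large errors. Of the pro-inflammatory cytokine list 1 of 20 was higher, Osm (1.69 ± 0.39), and it was lost without ganglia 1, ganglia 2, sATM 1, sATM 2 or vATM 1 (adjusted p = 0.108, 0.0532, 0.127, 0.139 and 0.252). Il1b stood at 589, 369 and 503 against 245 and 181 in sATM and 170.0 and 153 in vATM and missed the threshold in edgeR (1.39 ± 0.38, adjusted p = 0.0511). It stayed uncalled in 6 of 13 other settings, whereas DESeq2 (adjusted p = 0.00338) and voom (0.00926) called it higher.

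Lipid genes also went both ways, with 2 of 22 tested genes higher and 4 lower, beside 2.47% and 1.22% of all tested genes. The number lower was 0 without sATM 2, 1 without vATM 2, 2 without ganglia 3, and that higher was 1 without vATM 1. Apoe, the apolipoprotein that carries cholesterol out of macrophages (chr7:19696244-19699188, minus strand), had the highest level of any gene named here, at 16928, 32570.0 and 31536 CPM in ganglia, 3245 and 5132 in sATM and 5761 and 7623 in vATM (log2 fold change 2.35 ± 0.29, adjusted p = 1.28e-04). Abca1, the transporter that loads apolipoproteins with cholesterol, was at 225, 270.0 and 161 against 51.9 and 55.5 in sATM and 92.4 and 95 in vATM (1.62 ± 0.30), a call lost without vATM 1 (adjusted p = 0.073). Lgals3, galectin 3, which marks lipid-associated macrophages, went down to 119, 90.1 and 126 CPM in ganglia from 527 and 1168 in sATM and 759 and 659 in vATM (log2 fold change -2.80 ± 0.31, adjusted p = 6.33e-05). Lpl, lipoprotein lipase, was at 153, 43.4 and 42.5 against 288 and 1073 in sATM and 1089 and 685 in vATM (-3.29 ± 0.66; lost without ganglia 2, ganglia 3, sATM 2, vATM 1 or vATM 2 (adjusted p = 0.0607, 0.052, 0.0559, 0.0771 and 0.0572)), and Plin2, a coat protein of lipid droplets, at 56.3, 106 and 106 against 239.9 and 413 in sATM and 241 and 297 in vATM (-1.73 ± 0.32; lost without sATM 2 or vATM 2 (adjusted p = 0.0513 and 0.0504)). Trem2 and Lgals3 belong to the same list of lipid-associated macrophage genes and moved in opposite directions. Lgmn, the lysosomal protease legumain, was at 638, 654 and 767 CPM against 127 and 250.3 in sATM and 235 and 246 in vATM (log2 fold change 1.69 ± 0.25, adjusted p = 7.74e-04).

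The series asks about uptake and breakdown of norepinephrine by macrophages on sympathetic nerves, and that list gave no call in ganglia against fat: 0 of 11 tested genes were higher and 0 lower in edgeR (3 at an unadjusted p under 0.05, 0 called by DESeq2 and 1 by limma's voom). Slc6a2, the norepinephrine transporter, was at 11.3, 3.32 and 2.01 CPM in ganglia (49, 25 and 10 counts), 2.8 and 0 in sATM and 0.239 and 0.246 in vATM (3.23 ± 1.30, adjusted p = 0.242). It was the 1 gene that voom called (adjusted p = 0.0405). Ganglia 1 held the highest value, and sATM 1 lay within the ganglia range. Maoa, which oxidizes norepinephrine, was at 14.5, 20.3 and 8.43 against 0 and 4.71 in sATM and 7.18 and 8.48 in vATM (1.70 ± 0.75, adjusted p = 0.305); the ganglia 3 value lay below that of vATM 2, and without sATM 2 Maoa was called (0.0183). The other 9 tested genes were not called either.

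Of the 6 adrenergic receptor genes tested, 2 were higher in ganglia. Taken by depot, 1 was higher against sATM and 0 against vATM. Adrb1, the beta 1 receptor, was at 43.9, 31.2 and 39.3 CPM in ganglia, 12.5 and 2.64 in sATM and 12 and 9.71 in vATM (log2 fold change 2.10 ± 0.43, adjusted p = 0.00913), with no overlap. The list had 1 gene higher when any single library other than sATM 1 was left out. Dbh, the enzyme that makes norepinephrine in neurons, was at 18.9, 9.56 and 14.2 against 7.38 and 1.95 in sATM and 0.718 and 0.246 in vATM (3.24 ± 0.82), the only 1 of 8 tested synthesis genes called, and this call was lost without ganglia 1, ganglia 2, ganglia 3, sATM 2, vATM 1 or vATM 2 (adjusted p = 0.114, 0.0632, 0.0813, 0.154, 0.129 and 0.208). Th, the first enzyme of that path, was at 6.0, 2.39 and 9.83 against 3.31 and 0.69 in sATM and 0.599 and 0.492 in vATM and was not called (2.54 ± 0.90).

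Genes known from neurons and glia were in part higher in the ganglia libraries. Of 21 tested genes of sympathetic neurons 10 were higher and 0 lower (median 3.17), with 8 called higher against vATM and 1 against sATM, and 4 to 7 without 1 library (4 without sATM 2, 5 without ganglia 3, 6 without ganglia 1, vATM 1 or vATM 2). Their summed level was 185 to 249 CPM in ganglia, 42.3 to 113 in sATM and 24.6 to 32.8 in vATM. Stmn2, a neuronal microtubule regulator, was at 50.1, 26.4 and 29.7 CPM in ganglia, 18.1 and 4.25 in sATM and 2.04 and 0.737 in vATM (3.17 ± 0.51), and the neuropeptide gene Npy at 20.8, 27.1 and 31.9 against 10.9 and 6.55 in sATM and 1.32 and 0.614 in vATM (3.19 ± 0.38). sATM 1 held the most neuronal transcript of the fat libraries. Elavl4 and Chga of that list were below the filter. Of 16 tested Schwann cell and satellite glia genes 4 were higher and 0 lower (median 2.05; 3 against vATM and 2 against sATM), with a summed level of 358 to 474 CPM in ganglia, 151 to 242 in sATM and 333 to 346 in vATM. Kcnj10, a potassium channel of satellite glia, was at 15.7, 15.5 and 13.2 CPM in ganglia and had 1 count in vATM 1 and 0 in the other 3 fat libraries. The myelin genes Prx and Mag were below the filter. The microglia signature summed to 4619 to 5218 CPM in ganglia, 719 to 923 in sATM and 968 to 1069 in vATM. The part of neurons and glia in the called differences was not tested. In these bulk libraries more cells of a type and more RNA per cell cannot be told apart.

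The globin gene Hbb-bs was at 354, 226 and 271 CPM in ganglia, 140.1 and 55.1 in sATM and 23.7 and 10.2 in vATM (2.80 ± 0.45), and 4 of 7 tested genes of the list, all globins, were higher (4 against vATM and 0 against sATM). They come from near-identical copies (Hbb-bs, Hbb-bt, Hba-a1 and Hba-a2) and are not independent, while Alas2 and Slc4a1, which mark red cell precursors, were not called (2.79 ± 0.92 and 3.12 ± 2.07). Their summed level was 640.3 to 896 CPM in ganglia, 139.6 to 372 in sATM and 25.2 to 55 in vATM, with the part in other differences not tested. Gene lists of fat tissue cells gave few calls: 1 of 12 fibroblast genes was lower (Pi16; -5.59 ± 1.39; lost without ganglia 1, ganglia 2, sATM 1, sATM 2, vATM 1 or vATM 2 (adjusted p = 0.119, 0.134, 0.0679, 0.0828, 0.0975 and 0.0714)), and 0 of 11 adipocyte genes were called in edgeR (3 at an unadjusted p under 0.05, 2 called by DESeq2 and 3 by limma's voom). Of 8 endothelial genes 0 were called (1 at an unadjusted p under 0.05, 0 called by DESeq2 and 0 by limma's voom), and of 7 mural genes 0 (0 at an unadjusted p under 0.05, 0 called by DESeq2 and 0 by limma's voom). Adipocyte genes summed to 45.5 to 100.1 CPM in ganglia, 91.5 to 135 in sATM and 121 to 125 in vATM. Of 8 tested neutrophil genes only Mmp9 was lower.

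Genes that respond to handling were also higher in part. Dnajb1, a co-chaperone induced by heat shock, was at 468, 591 and 367 CPM in ganglia, 69.3 and 102 in sATM and 72.2 and 68.8 in vATM (log2 fold change 2.61 ± 0.28, adjusted p = 3.91e-05). Of the heat-shock chaperones 3 of 15 were higher and 0 lower, with 1 to 2 higher when 1 library was left out (1 without sATM 1, sATM 2, vATM 1 or vATM 2). Of the immediate-early genes 3 of 23 were higher and 0 lower, with 0 to 3 higher when 1 was left out (0 without ganglia 3, vATM 1 or vATM 2, 1 without sATM 1 or sATM 2). Egr1, an immediate-early transcription factor, was at 431, 261 and 365 against 99.6 and 147 in sATM and 228 and 141 in vATM (1.22 ± 0.30; lost without ganglia 1, ganglia 3, sATM 1, sATM 2, vATM 1 or vATM 2 (adjusted p = 0.158, 0.106, 0.227, 0.0669, 0.154 and 0.318)). The summed immediate-early level was 10222 to 13329.9 CPM in ganglia, 6693 to 9250.2 in sATM and 5741 to 7766 in vATM. The part of the different digestion of ganglia in these differences cannot be told apart from that of the tissue. Cell cycle genes had a median of -1.63 with 0 of 23 called in edgeR (4 at an unadjusted p under 0.05, 1 called by DESeq2 and 2 by limma's voom); the proliferation marker Mki67 was at 11.3, 4.38 and 13.8 CPM in ganglia, 27 and 68.2 in sATM and 41.2 and 63 in vATM (-2.35 ± 0.72, adjusted p = 0.0925).

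**Figure D4:**
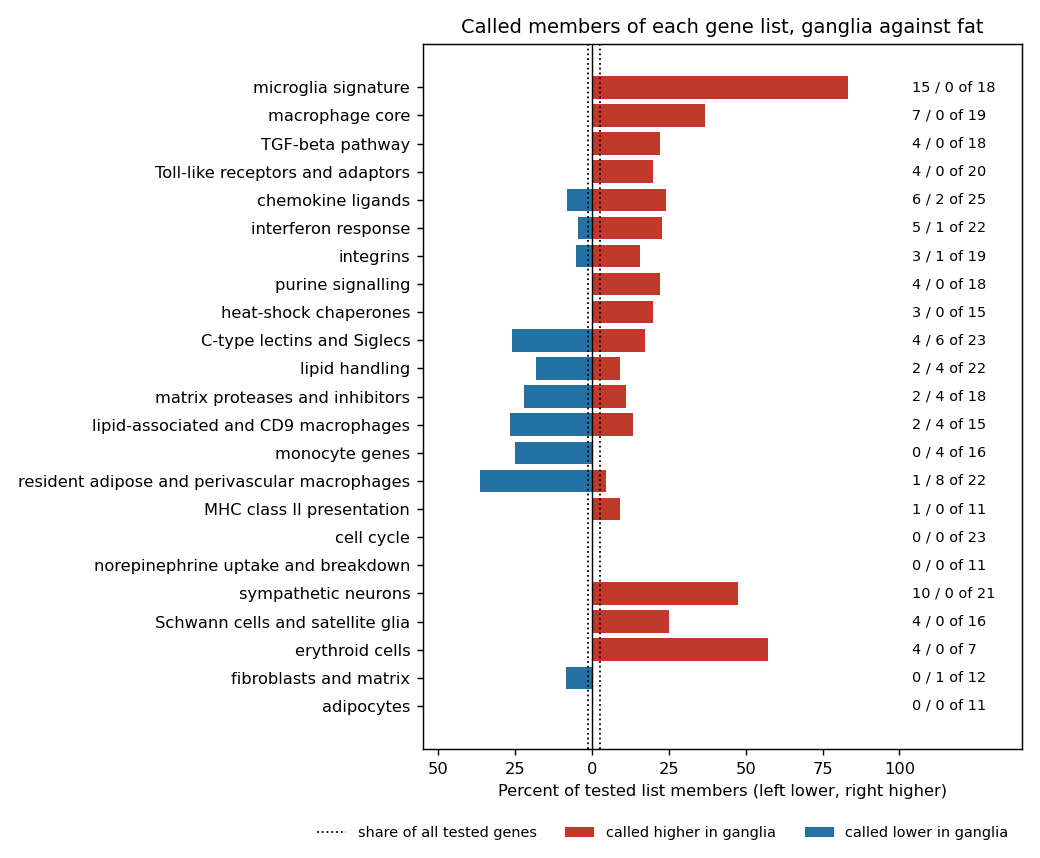
Share of each gene list's tested members called higher (red, right) or lower (blue, left) in ganglia against fat, in percent; the numbers give members higher and lower of those tested, and dotted lines mark the shares over all tested genes (2.47% and 1.22%). The microglia signature has 15 of 18 higher, the resident adipose and perivascular list 8 of 22 lower, and norepinephrine uptake and breakdown 0 of 11.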

How the data were processed

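The values analysed are estimated counts per gene that the authors deposited after removing reads from DNA contamination by a method not given in the sources used here, rounded to whole numbers. The authors also deposited RPKM values made from the same corrected reads, and raw counts over gene bodies without that removal; both served as alternatives. STAR, HOMER and the mm10 build are named per the submitters' processing notes, with versions not given in the sources used here. Gene coordinates are those of the deposited files. Total corrected counts were 4.09 to 12.5 M per library.

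Tests used edgeR 4.0.16 in R 4.3.3: TMM scaling, filterByExpr with a minimum count of 10, and quasi-likelihood tests on the group means of all 15 libraries, so that the spread is estimated over every group and not over the 2 libraries of each depot alone. P-values were Benjamini-Hochberg adjusted over all 15289 tested genes. The code was tested on simulated data. Of genes simulated with a log2 fold change of -3, -2 or 2, 27.7% to 29.6% were called in the right direction, and 51.0% at 3. A gene that was not called can therefore still differ. The alternatives were other scalings, filters, sample sets, DESeq2 1.42.0, voom and RPKM fits in limma 3.58.1 (pseudocount 0.1 or 1), a DNA background covariate, a replicate block and leaving out each library. Named genes are the 20 called genes of largest fold in each direction with groups that do not overlap and a mean of 30 CPM or more where the gene is higher, leaving out predicted and small RNA genes, plus the 4 markers given for these cells, Adgre1, Ptprc, the tested norepinephrine uptake and breakdown genes and up to 6 of each other list, called genes first. The members and lists were chosen with earlier results of these data known. Promoter windows came from a RefSeq table (GRCm38.p6) for genes whose RefSeq start lay within 500 bases of the counted start. Some items are not reported here.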

Additional observations from a re-analysis of the deposited data

How the results depend on the processing

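Of 92 called genes named in the text, Slco2b1 left out, 71 kept their call without each single library and 70 under all 13 other settings except raw gene-body counts. The 377 higher and 187 lower genes became 662 and 364 in DESeq2, 582 and 378 in voom, 249 and 108 on log2(RPKM + 0.1), 220 and 92 with no filter on low RPKM, and 2 and 2 in raw gene-body counts. Without the fiber libraries 320 genes were lower. The cause was not tested. Leaving out 1 library gave 181 to 306 higher and 94 to 195 lower genes; against sATM 79 to 200 and 84 to 105; against vATM 44 to 177 and 32 to 116; and between sATM and vATM 0 to 61 and 0 to 26. The fewest calls in ganglia against fat came without vATM 1 (181 higher) and vATM 2 (94 lower), which leave that depot with 1 library assumed to vary like the other groups. Fitted on the 7 libraries alone, the depots differed in 0 genes in either direction (edgeR), with 647 at an unadjusted p under 0.05. The alternatives for the depots and for gene lists were chosen after seeing the data. Same-numbered libraries did not deviate together throughout (correlations of -0.14 to 0.35), so the numbers were not taken to pair samples; with a replicate block 361 genes were higher and 165 lower. Directions turned for Itga9 (-0.29) and Cst7 (1.26) in raw gene-body counts, and for S100a8 without ganglia 3 (-0.30, with 3.34 without ganglia 1). Depth limits genes of a few counts, such as Slc6a2, Sall1 and Cd209f.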

Other observations

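Some S100 calcium-binding proteins and annexins, 2 families chosen after their values were seen, were lower in ganglia. Of 9 tested S100 genes 5 fell and 0 rose (median log2 fold change -1.05 against 0.14 over all tested genes), S100a4 and S100a6 among them. The other 4 were not called, and S100a8 (2.77 ± 1.15) and S100a9 (2.70 ± 0.81), abundant in neutrophils, were fitted higher; without ganglia 3 the sign of S100a8 turned (-0.30). S100a10, the partner of annexin A2 at the plasma membrane, was at 45.2, 60.03 and 34.7 CPM in ganglia, 103 and 286 in sATM and 339 and 237 in vATM (-2.34 ± 0.42). S100a11 was at 21, 30.9 and 18.3 against 74.9 and 103 in sATM and 91.5 and 61.8 in vATM (-1.82 ± 0.31). Of 9 tested annexins 2 fell and 0 rose (median -0.76). Anxa3 was not called (0.93 ± 0.29), with every ganglia library above every fat library. Anxa2, which binds S100a10, was at 36.5, 47 and 48.7 against 231 and 586 in sATM and 440.0 and 466 in vATM (-3.29 ± 0.34). Anxa1, an annexin with anti-inflammatory activity, was at 8.31, 18.9 and 4.81 against 62.6 and 108 in sATM and 73 and 66.2 in vATM (-2.83 ± 0.58), and its call was lost without ganglia 1, ganglia 3, sATM 2, vATM 1 or vATM 2 (adjusted p = 0.0541, 0.0535, 0.0592, 0.058 and 0.0584). S100a10, S100a11 and Anxa2 kept their calls without any 1 of the 7 libraries, but that of S100a10 was lost on RPKM with no filter on low values (adjusted p = 0.0661).

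Both the enzyme that makes prostaglandin D2 in blood-derived cells and an enzyme that breaks prostaglandins down were higher in ganglia; they too were chosen after their values were seen. Hpgds, the hematopoietic prostaglandin D synthase, was at 170.4, 99.2 and 118 CPM in ganglia, 15.3 and 15.8 in sATM and 31 and 26.5 in vATM (2.61 ± 0.29). Hpgd, the prostaglandin dehydrogenase, was at 314, 261 and 318 against 123 and 22.5 in sATM and 85.7 and 90.6 in vATM (1.90 ± 0.37). No ganglia library overlapped a fat library in either gene, and both calls held without any 1 library. The 3 other tested genes of this group, Ptgs1, Ptgs2 and Ptgds, were not called.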
